A study of Mus musculus with 8 samples.

Results

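The inhibitors of DNA binding Id1, Id2, Id3 and Id4 and 6 genes of the bone morphogenetic protein (BMP) pathway upstream of them were examined in cultured mouse adipocytes. The 6 genes were the ligand Bmp4, the receptor Bmpr1a, the signalling Smad1, the inhibitory Smad6 and Smad7 and the secreted antagonist Grem1. The genes were chosen by name and with the sXBP1 against GFP changes on these same arrays in view, Id4 having been among the falls already seen, so their changes are given as a description, with no p-value. Their probe sets were those annotated with a member as the sole gene symbol, 19 probe sets of the 10 genes, among 12393 genes on the array. Of the 19, 16 were called present on all 8 arrays and 3 on no array.

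All samples were adipocytes that had been differentiated from F442A preadipocytes, a mouse line of fibroblast shape whose cells fill with lipid once induced; a second label names the line 3T3L1, and the strain is given as Swiss. Cells at day 6 to 8 of differentiation received an adenovirus, either with the spliced, active form of the transcription factor Xbp1 (sXBP1, 4 samples) or with green fluorescent protein (GFP, 4 samples), and were collected 4 to 6 days afterwards. Both groups therefore carried a virus, and no uninfected cells were compared here. The study asked how adipocyte transcripts differ when spliced Xbp1 is overexpressed. Whether the 4 samples of a group were separate cultures is not given, so the spread between them may be technical.

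Id proteins are helix-loop-helix proteins that lack the basic region needed to touch DNA. They pair with the E proteins Tcf3, Tcf4 and Tcf12 and with other factors and keep them off their sites. BMP ligands bind pairs of type I and type II receptors, which phosphorylate Smad1, Smad5 and Smad9. These enter the nucleus with Smad4 and, in many cell types, raise Id transcription, and Smad6 and Smad7 are induced as feedback inhibitors. In fat, Bmp4 is known for committing precursor cells to the adipocyte lineage, and Id genes are known for keeping precursor cells of many tissues from differentiating.

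Median signal per array lay between 117.3 and 153.9, with means of 143.3 ± 8.53 (SD, n = 4) for GFP and 128.2 ± 9.14 for sXBP1 (exact permutation test, two-sided, p = 0.0857; 4 against 4 cannot go below 0.0286). Signals are linear intensities, and log2 changes are sXBP1 minus GFP after quantile normalization of log2(signal + 16), with the standard error of a limma fit over 22626 probe sets. A probe set was called where its adjusted p was under 0.05. For the members, which were chosen with these arrays in view, a call is a description only. Changes were larger on sXBP1 arrays 3 and 4. Over 11313 probe sets brighter than the median, the changes of sXBP1 arrays 1 to 4 had slopes of 0.796, 0.778, 1.15 and 1.12 against the mean change of the remaining sXBP1 arrays. Of 8 measured adipocyte markers, 8 were present on at least 1 array. By the brightest probe set of each gene 6 fell and 0 rose, beside 14.4% lower and 12.9% higher among all 12393 genes. Summed signals were 61082 to 66318 in GFP and 49850 to 59647 in sXBP1 samples. The 2 not called, Fabp4 and Lpl, had the highest signals, and each had a dimmer probe set called lower. These dimmer probe sets fell by 0.50 ± 0.13 and 0.38 ± 0.08 (limma adjusted p = 0.0184 and 0.0047). None of the 4 probe sets of Xbp1 itself was called in the main fit. In 1 of 17 alternative fits, after median centring, the brightest was called higher. Its change ran from 0.05 to 0.21 over these alternative fits. The brightest, 1420886_a_at, averaged 9888 ± 283 (SD, n = 4) under GFP and 10319 ± 417 under sXBP1, which is a change of 0.07 ± 0.04 (limma adjusted p = 0.271), and whether the probe sets detect the viral transcript was not analysed here.

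The 4 Id genes did not move together. In sXBP1 samples Id3 was 2.26-fold higher, Id4 was 2.92-fold lower on its brightest probe set and Id1 was 1.38-fold lower, while Id2 was dim and not called. Smad6 was 1.48-fold lower, and Bmp4, Bmpr1a, Smad1, Smad7 and Grem1 were not called on any probe set. Of the 19 member probe sets, 1 was called higher and 5 lower. Over all tested probe sets 11.5% were called higher and 13.0% lower, and nothing is read from the members' count since the members were chosen with this contrast known. The balance over all probe sets depended on scaling, with 46.9% of calls higher after quantile normalization, 60.7% after median centring and 33.4% with the deposited scaling, but the members' counts were 1 and 5 under each of these. With sXBP1 arrays 1 and 2 only, 1 member probe set was called higher and 3 lower. The median change of the 9 members present on any array, by brightest probe set, was -0.06, against -0.01 over all genes.

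**Figure D1:**
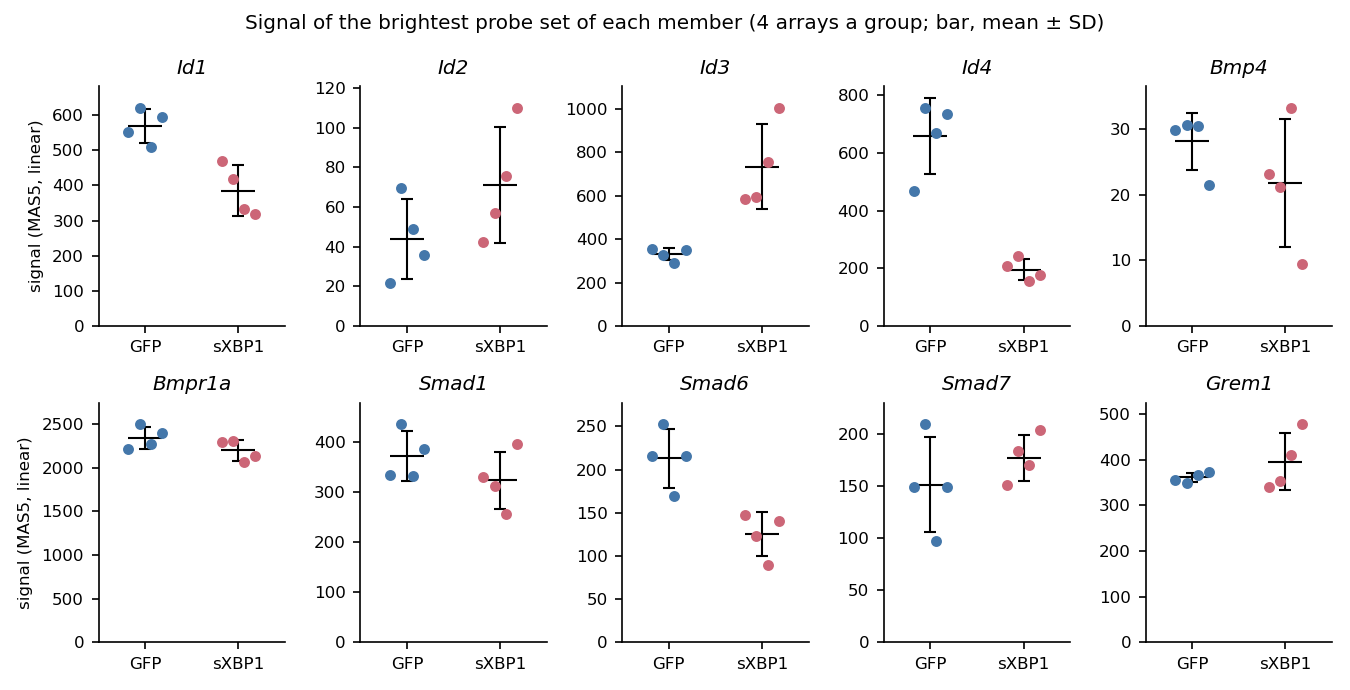
Linear signal (vertical axis, starting at 0) of the brightest probe set of each of the 10 genes on the 4 GFP and 4 sXBP1 arrays; each point is an array and the bars are mean ± SD. The groups separate for Id1, Id3, Id4 and Smad6 and overlap for the other 6 genes. The share of all genes whose groups separate is not given here, so nothing is read from that count.

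Id4, which in several tissues is expressed in progenitor cells, showed the clearest difference. On probe set 1423259_at its signal was 469.9, 756.9, 670.2 and 736.9 on GFP arrays 1 to 4 and 206.4, 243.4, 157.1 and 175.8 on sXBP1 arrays 1 to 4. The highest sXBP1 array stood below the lowest GFP array. The group means were 658 ± 131 (SD, n = 4) and 196 ± 37.8, and the log2 change was -1.55 ± 0.14.

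The other Id4 probe sets ran the same way with smaller changes. Probe set 1423260_at gave 368.5, 304.8, 290.5 and 305.2 in GFP and 192.2, 146.6, 123.1 and 170.2 in sXBP1 samples, a change of -0.82 ± 0.13. Probe set 1450928_at gave 309.8, 360.7, 293.0 and 320.8 in GFP and 140.3, 134.2, 95.8 and 98.2 in sXBP1 samples, a change of -1.22 ± 0.13. On all 3 probe sets the groups did not overlap. The share of all probe sets whose groups separate is not given here, so nothing is read from that, for Id4 or for other members. Each Id4 probe set was called lower in the main fit and in every one of its 16 or 17 alternatives. These alternatives reuse the arrays on which Id4 was chosen, so they show only how the fall depends on processing. With sXBP1 arrays 1 and 2 only, the changes on 1423259_at, 1423260_at and 1450928_at were -1.33, -0.71 and -0.99. The mean of the 3 probe sets changed by -1.19.

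Id3, the paralog that shares with Id1 a strong response to BMP in many cells, went the other way. Its signal on 1416630_at was 355.8, 329.0, 291.5 and 351.1 in GFP and 583.4, 592.1, 755.7 and 1004.9 in sXBP1 samples. Every sXBP1 array was above every GFP array, and arrays 3 and 4 were above arrays 1 and 2. The means were 332 ± 29.3 (SD, n = 4) and 734 ± 197, and the change was 1.18 ± 0.14. With sXBP1 arrays 1 and 2 only it was 0.92. Id3 was called higher in all 17 alternatives, which reuse the same arrays.

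Id1, the founding member of the family, was lower by a smaller amount. Its signal on 1425895_a_at was 552.1, 621.2, 508.9 and 596.4 in GFP and 471.1, 417.9, 332.2 and 317.4 in sXBP1 samples. The groups did not overlap, but the gap between the lowest GFP and the highest sXBP1 array was narrow. The means were 570 ± 49.6 (SD, n = 4) and 385 ± 72.7, and the change was -0.47 ± 0.12. It was -0.24 and not called with sXBP1 arrays 1 and 2 only, and the call was also lost without GFP replicate 1, 2 or 4 (-0.45, -0.46 and -0.46) or without sXBP1 replicate 3 (-0.43).

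Id2, known in other cells as a partner of adipogenic helix-loop-helix factors, was near the bottom of the signal range. Its brightest probe set, 1435176_a_at, gave 21.8, 69.4, 48.9 and 35.9 in GFP and 42.4, 56.7, 75.5 and 110.0 in sXBP1 samples. It was present on all 8 arrays, but the groups overlapped. The change was 0.64 ± 0.27 and was not called. Probe sets 1453596_at and 1422537_a_at were present on no array, with signals of 1.8 to 25.3 and 6.3 to 41.6, and no fold is given for them.

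**Figure D2:**
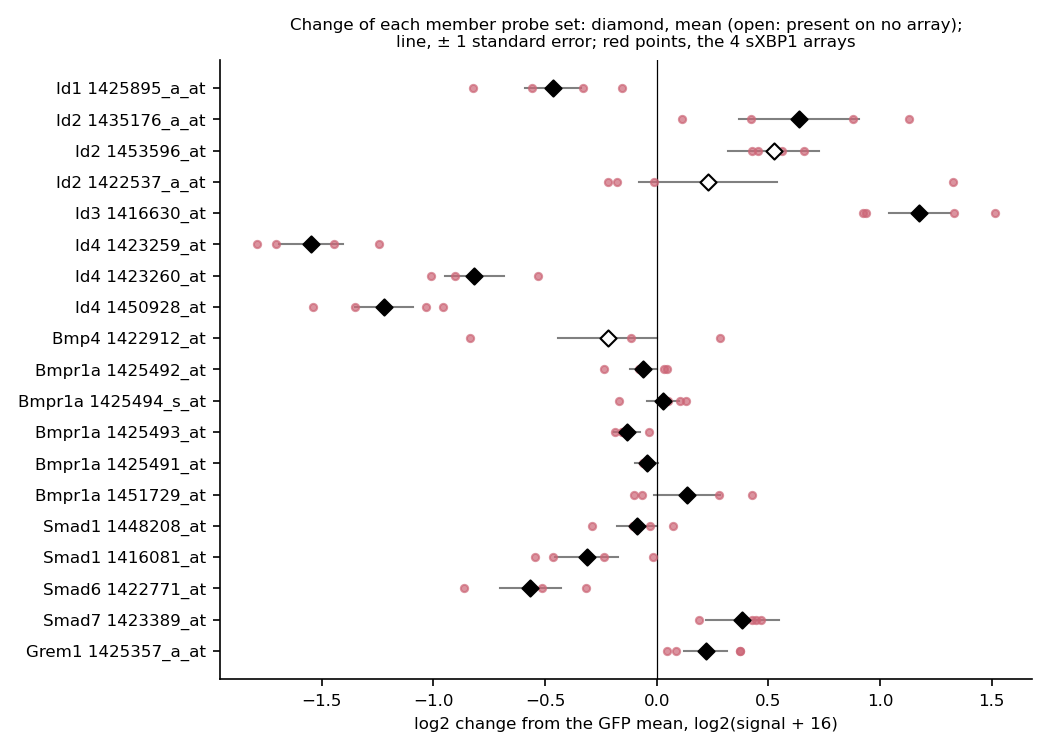
Log2 change from the GFP mean (horizontal axis, log2(signal + 16) scale) of the 19 member probe sets; diamonds are the mean of the sXBP1 arrays, open where the probe set was present on no array, lines are ± 1 standard error and red points the 4 sXBP1 arrays. The 3 Id4 probe sets lie between -0.82 and -1.55 and Id3 at 1.18, while all 5 Bmpr1a probe sets lie near 0.

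Set against one another array by array, the Id genes separated in opposite directions. The change of Id4 minus that of Id3 was -2.37, -2.18, -3.04 and -3.30 on sXBP1 arrays 1 to 4, with a mean of -2.72 ± 0.53 (SD, n = 4). The same quantity lay between -0.55 and 0.23 on the GFP arrays. The change of Id3 minus that of Id1 was 1.08, 1.27, 1.89 and 2.34 on the sXBP1 arrays, against -0.13 to 0.14 on GFP arrays. Id1 and Id4, which were both lower, also differed in size, Id4 minus Id1 lying at -1.29 to -0.92 in sXBP1 and at -0.41 to 0.21 in GFP samples. Id2 and Id3 could not be separated in this way: Id3 minus Id2 lay at 0.39 to 0.81 in sXBP1 samples, inside the -0.58 to 0.74 of the GFP arrays except on 1 array. These are differences of changes, not of levels, since signals of different probe sets do not share a scale.

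**Figure D3:**
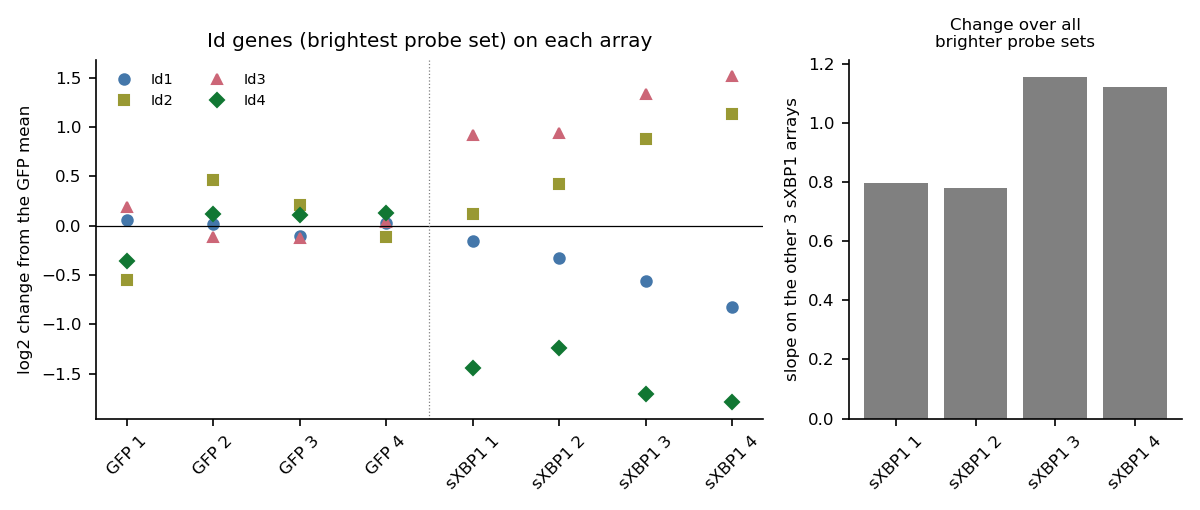
Left, log2 change from the GFP mean of the brightest probe set of Id1, Id2, Id3 and Id4 on each of the 8 arrays; right, the slope of each sXBP1 array against the mean change of the remaining sXBP1 arrays over 11313 probe sets. Id3 and Id2 lie highest and Id1 and Id4 lowest on sXBP1 arrays 3 and 4, the arrays whose slopes are 1.15 and 1.12.

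The larger changes of the 4 Id genes on sXBP1 arrays 3 and 4 ran with the overall size of change on those arrays. Id4 changed by -1.45, -1.24, -1.71 and -1.79 on 1423259_at and by -0.96, -1.03, -1.35 and -1.54 on 1450928_at on sXBP1 arrays 1 to 4. On 1423260_at it changed by -0.53, -0.90, -1.01 and -0.82, so array 4 did not exceed array 2 there. Id1 changed by -0.15, -0.33, -0.56 and -0.82 and Id2 by 0.11, 0.42, 0.88 and 1.13 on sXBP1 arrays 1 to 4. Adipocyte markers averaged -0.35, -0.37, -0.66 and -0.87 on the same arrays. What part this had in the size of the Id changes was not tested. In such bulk samples, fewer cells of a type and less RNA per cell cannot be told apart.

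Markers of other cells did not move in 1 direction. Of 10 preadipocyte and fibroblast markers 0 rose and 5 fell by the brightest probe set (12.9% and 14.4% of all genes), with summed signals of 78678 to 87180 in GFP and 75204 to 79000 in sXBP1 samples, and all 10 were present. A dimmer probe set was called lower for Col1a1 and Col3a1 and higher for Col1a2 and Pdgfra. Among the markers that fell, Dlk1, the preadipocyte factor, fell by 0.78 ± 0.10 (limma adjusted p = 3.6e-04). Of 8 macrophage markers 2 rose and 0 fell, with summed signals of 499 to 549 in GFP and 1024 to 1796 in sXBP1 samples. The rise lay in Cd68 at 1.79 ± 0.14 and Csf1r at 0.49 ± 0.14 (limma adjusted p = 1.3e-05 and 0.0239), while Ptprc, Fcgr1, Itgam and Cd163 were present on no array. Most of the summed rise was Cd68, from 307 ± 24.5 (SD, n = 4) to 1063 ± 318. Csf1r was called on 2 of 3 probe sets, the third changing by 0.01 ± 0.21 (limma adjusted p = 0.987). Adgre1 changed by -0.12 ± 0.16 and Mrc1 by 0.22 ± 0.22, neither called (limma adjusted p = 0.667 and 0.558). Of 8 endothelial markers limma called 0 in either direction by the brightest probe set, with Tek and Flt1 higher at unadjusted p = 0.0249 and 0.0368. Both dimmer probe sets of Flt1 were called higher, by 0.41 ± 0.09 and 0.45 ± 0.15 (limma adjusted p = 0.0077 and 0.0456). Their summed signals were 310 to 409 in GFP and 387 to 508 in sXBP1 samples, and Pecam1, Kdr, Emcn, Tie1 and Vwf were present on no array. The part of these cells in the Id changes was not tested.

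The promoters of Id2, Id3 and Id4 are shown because the paralogs Id3 and Id4 differed in opposite directions between the groups. Of the 10 genes, 8 matched RefSeq's promoter table, all but Id1 and Smad7. Each is the stretch of 250 bases before the start of transcription in RefSeq's mouse GRCm38.p6 annotation, read 5′ to 3′ on the gene's strand: Id2 at chr12:25096093-25096342 on the minus strand, Id3 at chr4:136143572-136143821 on the plus strand and Id4 at chr13:48260866-48261115 on the plus strand. Capitals mark the motifs found.
Id2: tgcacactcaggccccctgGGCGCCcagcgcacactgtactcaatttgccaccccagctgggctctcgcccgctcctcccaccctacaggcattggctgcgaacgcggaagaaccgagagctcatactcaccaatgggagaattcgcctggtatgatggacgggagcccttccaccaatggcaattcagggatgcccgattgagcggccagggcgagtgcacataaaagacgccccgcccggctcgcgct
Id3: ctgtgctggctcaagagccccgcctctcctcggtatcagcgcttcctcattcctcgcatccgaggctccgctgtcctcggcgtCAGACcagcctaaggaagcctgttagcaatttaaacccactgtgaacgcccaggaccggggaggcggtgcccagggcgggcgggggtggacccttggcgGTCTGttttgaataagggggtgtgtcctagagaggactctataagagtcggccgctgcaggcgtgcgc
Id4: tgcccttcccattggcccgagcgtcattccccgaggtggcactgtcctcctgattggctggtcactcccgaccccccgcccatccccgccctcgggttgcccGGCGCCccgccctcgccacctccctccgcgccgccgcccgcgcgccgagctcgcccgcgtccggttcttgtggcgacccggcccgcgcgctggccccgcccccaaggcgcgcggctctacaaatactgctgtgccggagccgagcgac

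Motifs were searched on both strands of 32851 windows of the same length. The XBP1 element TGACGTGG was found in 0.563% of them and its core ACGTGG in 6.91%. The ER stress element's CCACG, which overlaps that core when read on the opposite strand, was found in 28.3%, and the E-box CACGTG in 6.02%. The Id2, Id3 and Id4 windows held none of these. The capitals are the Smad motifs CAGAC in Id3, on each strand once, 167 and 68 bases before the start, and GGCGCC in Id2 and Id4, 231 and 148 bases before it. CAGAC was found in 42.2% and GGCGCC in 9.59% of all windows. All 8 matched windows were searched. The Bmp4 window held CACGTG from 188 and the overlapping ACGTGG from 187 bases before the start, and CCACG on the opposite strand from 186 and from 59. GGCGCC was found in the Bmpr1a window, GGCGCC with CAGAC in that of Grem1, and none of the motifs in those of Smad1 and Smad6. A match is only a run of letters, and its absence says nothing of these factors beyond the window. The windows of Id2, Id3 and Id4 were 62.8%, 62.8% and 75.6% G or C, against a median of 52.4%.

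Of the ligands, Bmp4 was not detected. Probe set 1422912_at was present on no array, with signals of 29.8, 30.6, 30.4 and 21.5 in GFP and 23.1, 21.1, 33.2 and 9.4 in sXBP1 samples, so no fold is given. Of the 7 other BMP and GDF ligands measured, 5 were likewise present on no array or had no detection call. Gdf5, a ligand known from joint formation, fell by 0.77 ± 0.17 (limma adjusted p = 0.0076), from 81.3 ± 21.0 (SD, n = 4) to 37.2 ± 8.82. It was present on 4 GFP arrays and 1 sXBP1 array and was not called with sXBP1 arrays 1 and 2 only (adjusted p = 0.0658).

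The type I receptor gene Bmpr1a was well measured and showed no called change on any of 5 probe sets. The brightest, 1425492_at, gave 2211.5, 2495.0, 2268.7 and 2394.3 in GFP and 2288.2, 2303.5, 2063.9 and 2133.4 in sXBP1 samples, a change of -0.06 ± 0.06. The groups overlapped on all 5, and the changes ran from -0.13 ± 0.06 to 0.13 ± 0.15. Of 9 other receptors and coreceptors measured, 0 rose and 1 fell, or 11.1%, near the 14.4% of all genes. Acvr2a, a type II receptor for activins and some BMPs, fell by 0.47 ± 0.09 (limma adjusted p = 0.0030) on 1 of 2 probe sets, from 572 ± 72.2 (SD, n = 4) to 380 ± 33.8, and the mean of its probe sets was not called (-0.20, adjusted p = 0.0641). The type II receptor Bmpr2 changed by -0.19 ± 0.13, the type I receptor Acvr1 by 0.10 ± 0.06 and Acvr1b, the activin type I receptor and the brightest of the list, by 0.17 ± 0.07 (limma adjusted p = 0.373, 0.338 and 0.0929). Another probe set of Acvr1 was called higher, at 0.42 ± 0.12 (limma adjusted p = 0.0247). Acvr1b was called higher after median centring (0.28, adjusted p = 0.0145) and without GFP replicate 3 (0.24, adjusted p = 0.0122).

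Among the Smads, the feedback inhibitor Smad6 was lower. Its signal on 1422771_at was 215.7, 252.5, 169.3 and 216.0 in GFP and 147.9, 123.5, 89.7 and 140.1 in sXBP1 samples. The groups did not overlap, and sXBP1 array 3 was the lowest. The means were 213 ± 34.1 (SD, n = 4) and 125.3 ± 25.8, and the change was -0.57 ± 0.14. It was -0.44 and not called with sXBP1 arrays 1 and 2 only.

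Smad7, which inhibits both the BMP and the TGF-beta branch, did not share that difference. Its signal on 1423389_at was 149.5, 209.2, 97.6 and 149.3 in GFP and 150.9, 183.9, 170.2 and 203.5 in sXBP1 samples. The groups overlapped, and the GFP arrays were the more spread. The change was 0.38 ± 0.16, called only without GFP replicate 2 among its 17 alternatives (0.51), and it was 0.23 without GFP replicate 3.

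Smad1, which BMP receptors phosphorylate, was not called on either probe set. Probe set 1448208_at gave 334.6, 436.1, 332.8 and 387.2 in GFP and 330.5, 312.8, 256.4 and 396.3 in sXBP1 samples, a change of -0.09 ± 0.09, and 1416081_at changed by -0.31 ± 0.14. The groups overlapped on both. Of the 5 other Smads, 0 rose and 1 fell. The shared partner Smad4 fell by 0.14 ± 0.04 (limma adjusted p = 0.0399) on 1 of 3 probe sets, and this call was lost in 12 of 17 alternatives. Smad5 changed by -0.05 ± 0.10 (limma adjusted p = 0.800) and was called present on 1 array of each group.

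The antagonist Grem1, which binds BMP ligands outside the cell, was not called. Its signal on 1425357_a_at was 356.3, 349.2, 367.0 and 372.5 in GFP and 340.8, 353.1, 410.2 and 477.2 in sXBP1 samples. Arrays 3 and 4 stood above all GFP arrays, and arrays 1 and 2 did not. The change was 0.22 ± 0.10, and 0.07 with sXBP1 arrays 1 and 2 only. Of 11 other antagonists measured, 0 rose and 2 fell, or 18.2%, near the 14.4% of all genes. Fstl1, a secreted follistatin-like protein, fell by 0.26 ± 0.06 and Twsg1, which modulates BMP with chordin, by 0.27 ± 0.06 (limma adjusted p = 0.0080 and 0.0124), Twsg1 on 1 of 4 probe sets. Fstl1 was not called after median centring (-0.13, adjusted p = 0.226), nor Twsg1 with sXBP1 arrays 1 and 2 only or with the mean of its probe sets (-0.19 in both, adjusted p = 0.0929 and 0.202).

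Other genes of the pathway were read from 10 lists of 100 genes, of which 86 were measured, each by its brightest probe set. Of the 86, 5 rose and 22 fell, or 5.81% and 25.6%, beside 12.9% and 14.4% of all 12393 genes. The lists were chosen with earlier results of these data known, so nothing is read from the difference in shares. Their median change was -0.16, against -0.01 for all genes. The counts were 9 and 17 after median centring, 3 and 22 with the deposited scaling, 5 and 20 with sXBP1 arrays 1 and 2 only and 7 and 15 with the mean of all probe sets of a gene. Of the 86 genes, 21 were present on no array or had no detection call.

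Of 11 regulators of Smads, 1 rose and 6 fell, or 9.09% and 54.5%, with a median of -0.28. Among all genes 12.9% rose and 14.4% fell, and nothing is read from the difference in shares here or in the other lists. This list of regulators holds both inhibitors and cofactors, and those that fell were of both kinds. Zeb2, a Smad-binding repressor, fell by 0.70 ± 0.13, Tob1, which restrains BMP-activated Smads, by 0.38 ± 0.07, and Hivep2, a Smad cofactor in BMP-induced adipogenesis, by 0.50 ± 0.09 on 1 of 2 probe sets (limma adjusted p = 0.0025, 0.0022 and 0.0030). Ski, Ppm1a and Nedd4l also fell, Ppm1a on 2 of 4 probe sets and Nedd4l on 1 of 2. Tgif1 rose by 0.30 ± 0.09 (limma adjusted p = 0.0323). Zfp423, a regulator of preadipocyte commitment, was dim, at 47.5 ± 5.72 (SD, n = 4) under GFP and 25.2 ± 11.2 under sXBP1, and changed by -0.62 ± 0.22 (limma adjusted p = 0.0701), a call reached with a pseudocount of 64 (-0.30, adjusted p = 0.0475) and without sXBP1 replicate 2 (-0.74, adjusted p = 0.0419). Without sXBP1 replicate 1 it was -0.39 (limma adjusted p = 0.110). Rnf11, the brightest of the list, changed by -0.15 ± 0.07 (limma adjusted p = 0.135), and was called lower without sXBP1 replicate 1 (-0.20, adjusted p = 0.0340) and with the mean of its probe sets (-0.19, adjusted p = 0.0385), another of its 3 probe sets having been called lower, at -0.23 ± 0.05 (limma adjusted p = 0.0075).

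Of 7 E proteins and other partners of Id proteins, 1 rose and 4 fell, with a median of -0.39. That is 14.3% and 57.1%, beside 12.9% and 14.4% of all genes. Tcf12 fell from 1400 ± 136 (SD, n = 4) to 965 ± 89.6, by 0.48 ± 0.07, on both of its probe sets. Tcf4 fell from 710 ± 42.5 (SD, n = 4) to 463 ± 42.2, by 0.51 ± 0.08, on 5 of 6 probe sets (limma adjusted p = 8.2e-04 and 0.0010). Tcf3 changed by -0.31 ± 0.12 (limma adjusted p = 0.0956), and was called lower without GFP replicate 3 (-0.41, adjusted p = 0.0328) and, only just, after the filter on low signals. Srebf1, a lipogenic factor that Id proteins can bind, fell by 0.54 ± 0.10 (limma adjusted p = 0.0024). Ets1 also fell, on 2 of 4 probe sets, and Ets2 rose by 0.34 ± 0.07 (limma adjusted p = 0.0057). Tcf4, Tcf12 and Srebf1 were called lower in all 17 alternatives.

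The next lists held genes that BMP, E proteins or Id proteins control in other cells. Of 11 transcription factors induced by BMP elsewhere, 2 rose and 0 fell, or 18.2% and 0%, beside 12.9% and 14.4% of all genes. Junb, an AP-1 subunit, rose from 171 ± 26.3 (SD, n = 4) to 306 ± 34.1, by 0.92 ± 0.10 (limma adjusted p = 1.3e-04). The other, Dlx5, was present on no array, and its call was lost in 7 of 16 alternatives. Of 5 genes under E-protein or Id control, 0 rose and 1 fell. Cdkn2a, which encodes cell cycle inhibitors and is repressed by Id1 in fibroblasts, fell by 0.34 ± 0.10 (limma adjusted p = 0.0263), a call lost in 6 of 17 alternatives. Cdkn1a, an E-protein target, changed by -0.04 ± 0.07 (limma adjusted p = 0.782).

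Of 8 transcription factors that act on Id genes, 1 rose and 2 fell. Klf4 fell by 0.57 ± 0.08 on 1 of 2 probe sets, and Nfya, a CCAAT-binding subunit, rose by 0.34 ± 0.05 on 2 of 3 (limma adjusted p = 5.5e-04 and 0.0011). Nfya was not called with values as deposited (0.25, adjusted p = 0.0642), and the fall of Yy1 by 0.19 ± 0.05 (limma adjusted p = 0.0204), on 1 of 4 probe sets, was lost in 7 of 17 alternatives. Egr1 and Atf3, an activator and a repressor of Id1 in other cells, changed by -0.37 ± 0.14 and -0.19 ± 0.08 (limma adjusted p = 0.0876 and 0.140).

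In the TGF-beta branch, which signals through Smad2 and Smad3, 0 of 12 genes rose and 4 fell by the brightest probe set. That is 0% and 33.3%, beside 12.9% and 14.4% of all genes. Inhbb, a subunit of activin B, fell from 1094 ± 29.5 (SD, n = 4) to 442 ± 144, by 1.25 ± 0.19, on both of its probe sets (limma adjusted p = 8.3e-04). The ligand Tgfb2 fell by 0.66 ± 0.12 on 2 of 3 probe sets, and the receptor Tgfbr1 by 0.48 ± 0.08 on 1 of 3 (limma adjusted p = 0.0023 and 0.0017). Tgfbr1 was not called with the mean of its probe sets (-0.26, adjusted p = 0.116). Tgfbr2 also fell, on 1 of 3 probe sets. Ltbp3, a latency protein and the brightest of the list, changed by -0.16 ± 0.14 (limma adjusted p = 0.455), and by -0.29 to -0.08 without 1 sample. The other probe set of Ltbp3 was called lower, at -0.25 ± 0.07 (limma adjusted p = 0.0188).

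**Figure D4:**
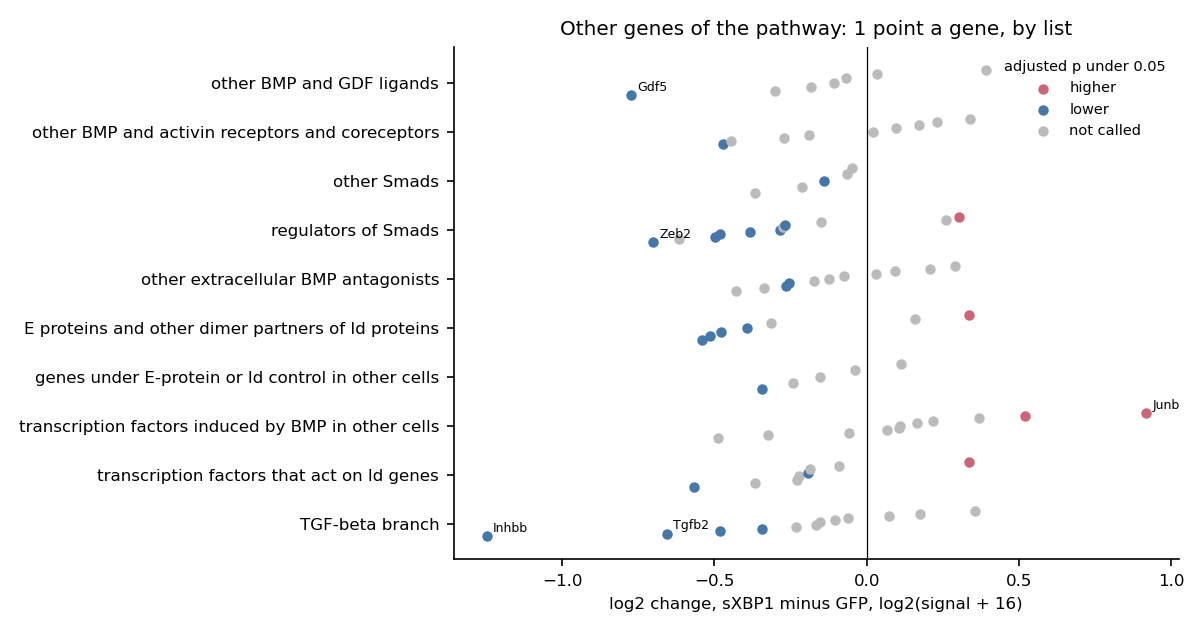
Log2 change, sXBP1 minus GFP (horizontal axis, log2(signal + 16) scale), of 86 measured genes in 10 lists; each point is a gene by its brightest probe set, red where called higher, blue where called lower and grey otherwise. Called genes lie mostly below 0, with Inhbb lowest at -1.25 and Junb highest at 0.92.

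For each Id gene the 3 other genes most like it were found by the root mean square distance between log2 changes over the 8 arrays, among genes brighter than the median. Id4 lay closest to Aspn, a small leucine-rich matrix proteoglycan, to Nrep and to Pdk4, a kinase that inhibits pyruvate dehydrogenase, at distances of 0.16, 0.16 and 0.17. These changed by -1.55, -1.39 and -1.44. Id3 lay closest to Edrf1, Tnfrsf23 and Nme7, at 0.12, 0.12 and 0.13. Id1 lay closest to Slc25a10, a mitochondrial dicarboxylate carrier, Dolk, dolichol kinase, and Tnip1, at 0.07 each. The dim Id2 had no neighbour as near, with Col7a1, Slc35c2 and Tfb2m at 0.19, 0.19 and 0.23.

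The authors' deposited table listed all 19 member probe sets. Its folds, ratios of group means of the signals as deposited, ran the same way as the log2 changes for every member probe set but 1425494_s_at of Bmpr1a, where both were near no change. In the authors' deposited table Id4 was 3.37-fold, 2.01-fold and 2.74-fold lower on 1423259_at, 1423260_at and 1450928_at, Id1 was 1.48-fold lower, Smad6 was 1.70-fold lower and Id3 was 2.21-fold higher.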

How the data were processed

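Total RNA of 8 adipocyte samples was hybridised to Affymetrix arrays, 1 array per sample. The authors deposited 1 linear signal intensity for each probe set and sample. MAS5 is named in the submitters' processing notes, its version and scaling target not being given in the sources used. The authors' deposited comparison table gave detection calls, a fold and a score for 18394 probe sets; the score was not used. Of 22690 probe sets, 64 controls were left out and 22626 tested. Gene symbols came from the platform annotation, single for 20380 probe sets.

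Signals were taken as log2(signal + 16) and quantile normalized, and the groups were then tested in R 4.3.3 with limma 3.58.1 (lmFit, trended eBayes, two-sided, Benjamini-Hochberg over all tested probe sets). The fit was tested on simulated data. This log2 scale understates changes of dim genes. Each gene is given by its brightest probe set on average. Members and lists were chosen with earlier results of these data known. Genes named from the lists were up to 3 with the smallest p past the threshold, the brightest, and 8 by name. Ski, Ppm1a, Nedd4l, Tgif1, Ets1, Ets2, Egr1, Atf3, Tgfbr2, Tgfbi and the cell type markers were named after their values were seen. Alternatives were values as deposited, median centring, pseudocounts of 1 and 64, a filter on low signals, no trend, a replicate block, the mean of all probe sets and leaving out each sample; sXBP1 arrays 1 and 2 only was added after seeing the data. The number of arrays limits the precision.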

Additional observations from a re-analysis of the deposited data

Results flagged for a closer look

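The 19 member probe sets and 29 pathway genes, each by its brightest probe set, were examined in the GFP and in the sXBP1 arrays, 96 groups of 4 in all. Of these, 6 had 1 array far from the other 3 by Dixon's test, and chance flags about 1 in 20 groups. On the normalized log2 scale, Id4 on 1423259_at was 8.97 on GFP array 1 against 9.43 to 9.46 on the other GFP arrays, still above all sXBP1 arrays. The undetected Id2 probe set 1422537_a_at was 5.98 on sXBP1 array 3 against 4.43 to 4.64. Smad7 was 7.46 on sXBP1 array 1 against 7.70 to 7.74. Bmpr1a on 1425494_s_at was 9.55 on GFP array 3 against 9.42 to 9.44. Among the pathway genes, Acvr2a was 8.95 on GFP array 3 against 9.20 to 9.23, and Srebf1 was 10.86 on GFP array 1 against 10.74 on each of the others.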

How the results depend on the processing

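Called member probe sets were 1 higher and 5 lower; leaving out 1 sample gave 1 to 2 and 4 to 5, and sXBP1 arrays 1 and 2 only gave 1 and 3. Pathway genes higher, 5 in all, were 3 with values as deposited, 9 after median centring and 3 to 6 without 1 sample. All probe sets called higher, 2601, were 1600 with values as deposited. The replicate block gave 2427 probe sets higher and 2656 lower, and 1 and 5 of the members. Among named genes it ended the calls of Smad4 and Dlx5 (adjusted p = 0.0884 and 0.0739). Whether replicate numbers pair the samples is not given. Deviations of same-numbered arrays correlated at -0.02 to 0.04 and those of differently numbered arrays at -0.05 to 0.04. Such weak correlations do not settle whether same-numbered samples were paired. Among members, the uncalled change turned sign for Bmpr1a on 1425492_at after median centring (0.053) and with sXBP1 arrays 1 and 2 only (0.037), on 1425491_at after median centring (0.0019), and on 1425494_s_at with values as deposited (-0.052) and without sXBP1 replicate 1 (-0.0037). It did so for the undetected Id2 1422537_a_at without sXBP1 replicate 3 (-0.14) and with sXBP1 arrays 1 and 2 only (-0.095). Among pathway genes, uncalled changes turned sign for Acvr1 with values as deposited (-0.0060), for Smad5 without sXBP1 replicate 4 (0.021; -0.104 to 0.021 without 1 sample) and with sXBP1 arrays 1 and 2 only (0.076), and for Cdkn1a after median centring (0.080) and without sXBP1 replicate 2 (0.022; -0.109 to 0.022 without 1 sample). The cause was not tested. For named pathway genes and Xbp1, 454 of 507 values kept direction and call, 39 lost a call and 9 gained one; for members, 298 of 311 moved by less than 1 SD. Dim probe sets, such as those of Id2 and Bmp4, limit what can be seen, and a change that was not called is not shown to be absent.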
